A study of Mus musculus with 6 samples.

Results

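A set of 43 genes of cholesterol synthesis, fatty acid synthesis and milk fat secretion was examined in the transcriptomes of 6 mouse breast tumors, out of 18460 genes listed in at least 1 tumor. The genes were chosen by name for their place in these pathways, with earlier results of these data known. They comprise 16 cholesterol enzymes, 4 sterol regulators, 14 genes that make, elongate or desaturate fatty acids, 4 genes of triacylglycerol assembly and 5 genes of milk fat packaging. All 43 were listed and all passed edgeR's filter on low counts, which left 13706 genes tested.

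The 3 control tumors came from PyMTtg;Rag1KO mice and the 3 test tumors from K14-TSLPtg;PyMTtg;Rag1KO mice, all on the BALB/c background. The PyMT transgene, which encodes an oncoprotein under the MMTV promoter, gives spontaneous mammary tumors in both groups. Loss of Rag1 leaves the host without T and B cells of its own, and CD4+ T cells were injected into mice of both groups when they were 4 wk old. The test mice additionally carried Tslp, an epithelial cytokine, under the K14 promoter, which is active in skin keratinocytes. *Krt14* itself, a marker of basal epithelium, was listed in all 6 tumors. Tumors were collected at 18 to 20 wk. The comparison asks which of these lipid genes differed between tumors that formed with and without the Tslp transgene.

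Mammary epithelium makes milk fat from fatty acids that it builds itself and from fatty acids taken up from blood, joins them to glycerol, and releases the triacylglycerol as droplets wrapped in plasma membrane. The SREBP transcription factors switch on both arms of lipid synthesis. SREBP2, encoded by *Srebf2*, acts chiefly on cholesterol genes and SREBP1, encoded by *Srebf1*, chiefly on fatty acid genes, and INSIG1 holds both precursors in the endoplasmic reticulum when sterols are plentiful.

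Totals of expected counts, the estimated reads per gene, ran from 8373390 to 9449565 per tumor. Levels are given as CPM, counts scaled to a common library size by TMM, and levels of different genes are set side by side only in FPKM, which also divides by gene length. Of the markers for luminal epithelium, 7 of 7 were detected in every tumor, with summed levels, in the order of the replicate numbers, of 2173, 4123 and 1874 CPM in the controls and 5356, 5336 and 5700 CPM in the test tumors. *Krt8*, *Krt18*, *Krt19* and *Cldn3* did not overlap between the groups and were higher in the test tumors. Adipocyte markers, 8 in all, summed to 6.71, 10.2 and 15.6 CPM in the controls and to 296, 62.5 and 2.86 CPM in the test tumors, and 4, 0, 1, 0, 1 and 3 of them were at 0 in the same order. Skeletal muscle markers, 9 in all, ranged from 5.86 to 191 CPM in the controls and from 105 to 992 CPM in the test tumors, with test replicate 1 highest. These bulk values cannot tell apart fewer cells of a type and less RNA per cell. The transcript of *Tslp* itself was at 2, 2 and 3 counts in the controls and 12, 7 and 2 counts in the test tumors, so test replicate 3 could not be told from the controls at this depth. Rag1 transcripts were at 27, 4 and 10 counts in the controls and 6, 12 and 9 counts in the test tumors, and the comparison does not check this shared knockout.

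No member passed an adjusted p of 0.05 in edgeR's quasi-likelihood fit (Benjamini-Hochberg), and 0% of the 13706 genes tested passed it. The adjusted p of the members by that test ran from 0.430 to 0.995. DESeq2 called 1 member, *Olah*, with an adjusted p of 0.0064, beside 343 of 18383 genes, so that nothing about the members is read from this count. At an unadjusted p under 0.05, 3 members (*Msmo1*, *Olah* and *Scd1*) were higher in the test tumors, against 3.15% of all genes tested, and 1 (*Fads2*) was lower, against 5.26%. For 4 members (*Dhcr7*, *Elovl1*, *Olah* and *Scd1*) every test tumor exceeded every control tumor, against 6.12% of all genes, and for 1 (*Fads2*) every test tumor lay below, against 5.86%. In mean level, 30 members were higher and 13 lower in the test group, and the members had a median log2 fold change of 0.29, whereas 51.5% of all genes tested were higher with a median of 0.02. With counts this small, nothing is read from these shares in either direction.

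**Figure D1:**
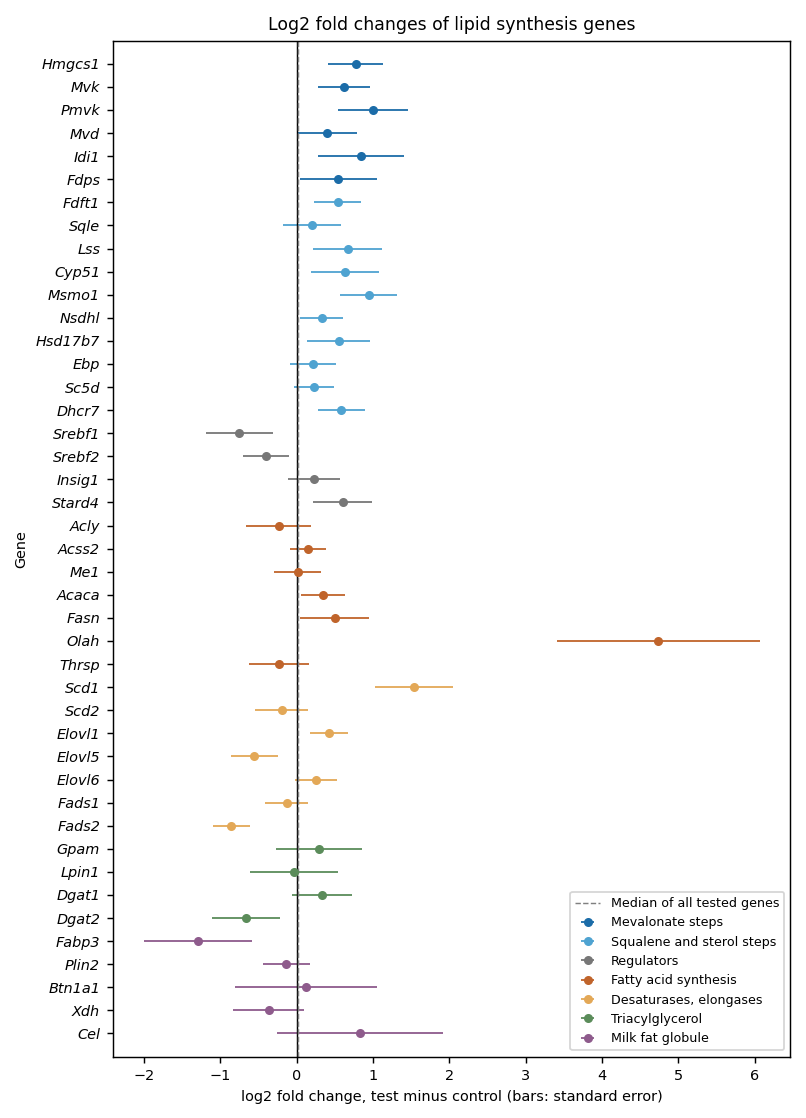
Log2 fold change, test minus control tumors, for each of the 43 genes, with bars for the standard error and colors for the role of the gene. The 16 cholesterol enzymes all lie to the right of 0, between 0.20 and 1.00, and the other roles fall on both sides. All 16 lie left of 0 when tumors are scaled to luminal markers, which moves the median of all genes to -1.14.

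The 16 enzymes that carry acetyl units through mevalonate and squalene to cholesterol were all higher in mean in the test group. Their log2 fold changes ran from 0.20 to 1.00, with a median of 0.57. None passed the adjusted threshold, and for 15 of the 16 the groups overlapped on TMM scaling. The mean centred log2 level of the list was -0.88, 0.22 and -0.23 in the controls and -0.08, 0.27 and 0.69 in the test tumors, in replicate order. The mean of this level was -0.30 ± 0.55 in the controls and 0.30 ± 0.39 in the test tumors (SD, n = 3 each), so the groups differed by little more than the spread within them. Control replicate 1 was the lowest of the 6 tumors for 16 of 16 enzymes, and test replicate 3 was the highest for 13 of 16.

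The first part of the pathway showed this order gene by gene. *Hmgcs1*, the HMG-CoA synthase, was at 56.4, 107 and 97.1 CPM in the control tumors and 104, 133 and 207 CPM in the test tumors. Its log2 fold change was 0.77 (standard error 0.36), and only the overlap of test replicate 1 with control replicate 2 kept the groups from separating. *Pmvk*, which phosphorylates mevalonate 5-phosphate, was at 9.84, 30.5 and 22.8 CPM in the controls and 25.9, 49.9 and 50.2 CPM in the test tumors. Its log2 fold change of 1.00 (standard error 0.46) was the largest of the 16, and again test replicate 1 fell inside the control range. *Mvk*, *Mvd*, *Idi1* and *Fdps*, which complete the route to farnesyl diphosphate, had log2 fold changes of 0.62, 0.39, 0.84 and 0.55, all with overlapping groups on TMM scaling. With RLE or DESeq2 scaling the *Mvk* groups did not overlap, and in FPKM they did.

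Past squalene, *Msmo1*, the sterol C4-methyl oxidase, was at 19.6, 42.7 and 31.3 CPM in the controls and 40.9, 59.4 and 79.4 CPM in the test tumors. Its log2 fold change was 0.94 (standard error 0.37), with an adjusted p of 0.551 in edgeR's quasi-likelihood fit (Benjamini-Hochberg). *Dhcr7*, the reductase of the last step to cholesterol, was at 79.0, 159 and 117 CPM in the controls and 198, 173 and 162 CPM in the test tumors. On TMM scaling it was the one enzyme of the list whose groups did not overlap, by a margin of a few CPM between control replicate 2 and test replicate 3. In FPKM the *Dhcr7* groups overlapped. The log2 fold change of *Dhcr7* was 0.59 (standard error 0.30), and a two-sided exact permutation test over the 6 tumors gave p = 0.1, the smallest that 3 tumors against 3 allow. *Sqle*, the squalene epoxidase and a rate-controlling step, was at 52.3, 104 and 91.3 CPM in the controls and 69.3, 75.1 and 140.3 CPM in the test tumors. The groups overlapped widely, and the log2 fold change of 0.20 (standard error 0.38) was the smallest of the 16. *Fdft1*, *Lss*, *Cyp51*, *Nsdhl*, *Hsd17b7*, *Ebp* and *Sc5d* lay between, with log2 fold changes from 0.21 to 0.67.

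**Figure D2:**
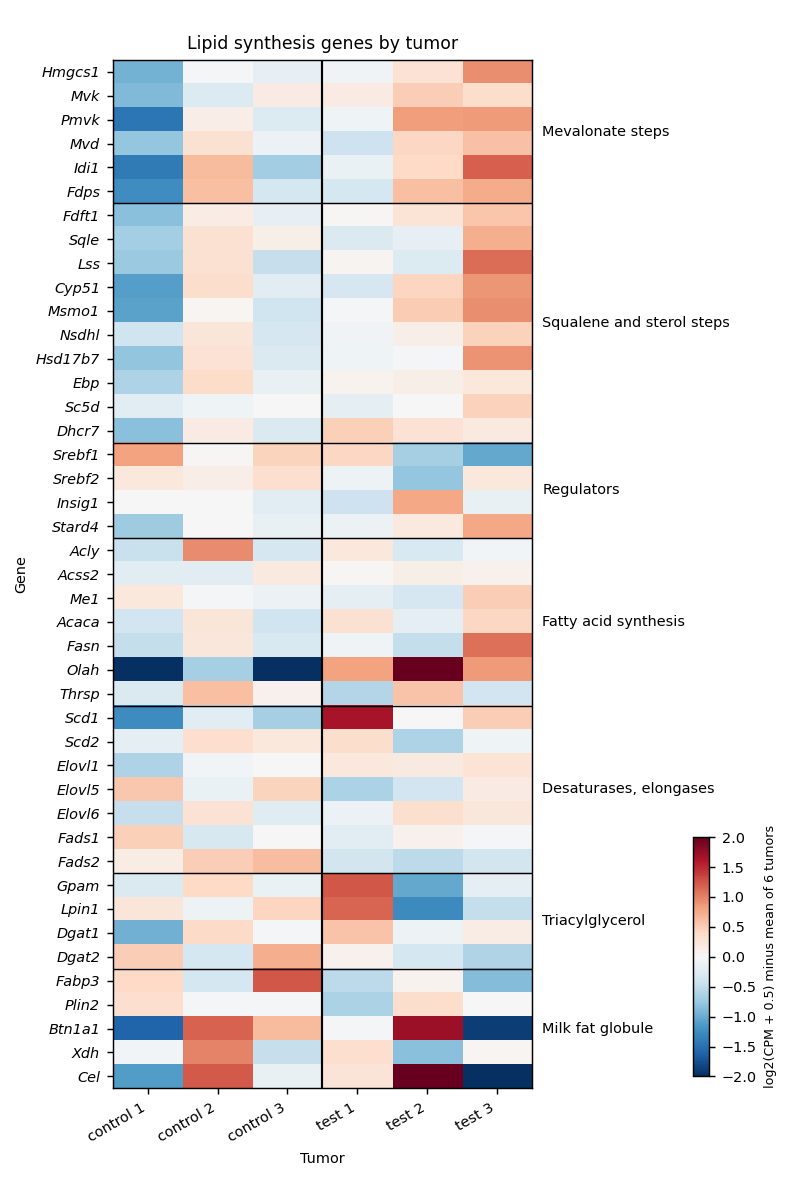
Centred log2 level, log2(CPM + 0.5) minus the mean of the 6 tumors, for the 43 genes in rows and the 6 tumors in columns, colored from -2 (blue) to 2 (red), with values beyond these limits shown at the limit. The cholesterol rows are bluest in control replicate 1 and reddest in test replicate 3, and the milk fat globule rows of *Btn1a1* and *Cel* are reddest in test replicate 2 and bluest in test replicate 3.

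The uniform direction and the size of the difference depended on single tumors. Without control replicate 1, the median log2 fold change of the 16 enzymes was 0.32 and 14 of 16 were higher, *Ebp* and *Sqle* being the exceptions. Without test replicate 3 it was 0.34 with 15 of 16 higher, and without control replicate 2 it was 0.87 with 16 of 16 higher. Without control replicate 3, test replicate 1 or test replicate 2 it was 0.56, 0.72 and 0.58, each with 16 of 16 higher. With control replicate 1 and test replicate 1 both left out, chosen after the data were seen, it was 0.47 with 16 of 16 higher. The luminal epithelial markers were also low in control replicate 1 but were lowest in control replicate 3 and nearly level over the test tumors. Their centred log2 level was -0.84, 0.10 and -0.91 in the controls and 0.55, 0.50 and 0.60 in the test tumors. The cholesterol level minus the luminal level was therefore -0.04, 0.12 and 0.68 in the controls and -0.62, -0.23 and 0.09 in the test tumors, so that relative to luminal markers the enzymes were lower in mean in the test tumors, with overlapping groups. With each tumor scaled to the 7 luminal markers, a setting chosen after the data were seen, 0 of 16 enzymes were higher and their median log2 fold change was -0.50. In that setting the median log2 fold change of all genes was -1.14, and the median of the enzymes lay 0.64 above it, beside 0.55 with TMM scaling. The medians of all 5 role groups were below 0 in that setting. The part of luminal cell content in the result was not tested.

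**Figure D3:**
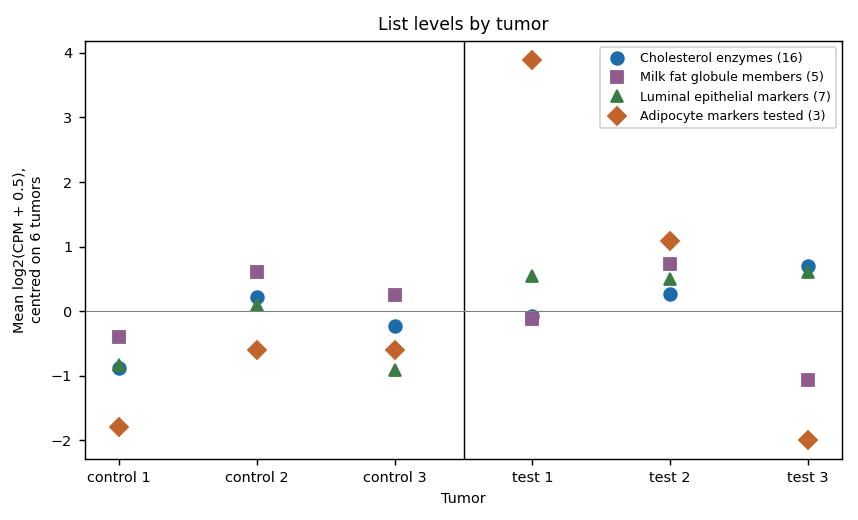
Centred log2 level of 4 gene lists in each tumor, as the mean over the list of log2(CPM + 0.5) minus the mean of the 6 tumors. Cholesterol enzymes (circles) and luminal markers (triangles) are both low in control replicate 1 and high in test replicate 3, milk fat globule genes (squares) are lowest in test replicate 3, and adipocyte markers (diamonds) are highest in test replicate 1.

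Promoters were read from RefSeq on GRCm38.p6, each from 250 bases before to 50 bases after the transcription start. Those of *Hmgcs1*, *Pmvk*, *Msmo1*, *Dhcr7*, *Olah* and *Fads2* are shown, as a description and not a ranking of members. Of the 43 members, 32 had an entry. Capitals mark the CCAAT box in either orientation (CCAAT or ATTGG) and the sterol regulatory element TCACNCCAC on either strand. For genes with several listed windows the first is shown.
Hmgcs1, chr13:119690101-119690400, plus strand: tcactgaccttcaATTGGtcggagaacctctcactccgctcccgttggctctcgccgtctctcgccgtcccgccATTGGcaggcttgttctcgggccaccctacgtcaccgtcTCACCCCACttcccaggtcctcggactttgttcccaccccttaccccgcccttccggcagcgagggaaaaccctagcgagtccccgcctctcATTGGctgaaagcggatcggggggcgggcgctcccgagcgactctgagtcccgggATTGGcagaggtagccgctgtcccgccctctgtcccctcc
Pmvk, chr3:89454291-89454590, plus strand: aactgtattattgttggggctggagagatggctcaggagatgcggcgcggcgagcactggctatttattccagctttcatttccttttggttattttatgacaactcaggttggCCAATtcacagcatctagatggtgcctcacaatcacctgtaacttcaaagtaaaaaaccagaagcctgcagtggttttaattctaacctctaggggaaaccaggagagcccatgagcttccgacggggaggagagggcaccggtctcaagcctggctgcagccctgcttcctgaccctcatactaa
Msmo1, chr8:64733529-64733828, minus strand: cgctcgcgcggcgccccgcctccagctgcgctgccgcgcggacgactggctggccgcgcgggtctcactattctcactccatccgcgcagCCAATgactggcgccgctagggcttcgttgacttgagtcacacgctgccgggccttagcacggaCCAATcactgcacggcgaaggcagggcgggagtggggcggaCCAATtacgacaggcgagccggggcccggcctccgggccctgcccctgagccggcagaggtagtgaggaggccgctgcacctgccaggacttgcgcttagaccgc
Dhcr7, chr7:143822917-143823216, plus strand: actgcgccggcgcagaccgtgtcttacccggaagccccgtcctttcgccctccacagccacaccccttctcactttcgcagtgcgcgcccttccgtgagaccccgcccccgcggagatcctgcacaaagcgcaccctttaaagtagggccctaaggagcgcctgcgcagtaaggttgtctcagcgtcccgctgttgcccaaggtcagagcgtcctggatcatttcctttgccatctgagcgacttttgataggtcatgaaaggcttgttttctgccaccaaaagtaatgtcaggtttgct
Olah, chr2:3366520-3366819, minus strand: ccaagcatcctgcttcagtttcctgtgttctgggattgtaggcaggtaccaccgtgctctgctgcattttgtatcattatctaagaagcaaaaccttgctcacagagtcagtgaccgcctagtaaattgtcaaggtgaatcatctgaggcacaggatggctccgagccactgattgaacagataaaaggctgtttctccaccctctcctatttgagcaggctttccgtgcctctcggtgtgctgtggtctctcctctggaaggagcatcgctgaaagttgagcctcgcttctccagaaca
Fads2, chr19:10101454-10101753, minus strand: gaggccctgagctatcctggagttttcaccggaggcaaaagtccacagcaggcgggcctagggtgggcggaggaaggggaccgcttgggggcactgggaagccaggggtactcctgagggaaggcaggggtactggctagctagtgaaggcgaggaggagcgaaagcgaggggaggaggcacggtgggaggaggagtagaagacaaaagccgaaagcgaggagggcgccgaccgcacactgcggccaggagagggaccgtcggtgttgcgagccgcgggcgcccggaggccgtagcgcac

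The CCAAT box was found in a listed window of 13 of the 13 cholesterol enzymes with an entry, in 12 of 19 other members, and in 41.1% of the 27025 genes with an entry or 42.6% of the 10843 tested genes with one. *Hmgcs1* held 4 matches and *Msmo1* 3, whereas the first *Dhcr7* window held 0 and its matches were in another of its 3 listed windows. The windows of *Olah* and *Fads2* held none. The sterol regulatory element, in the form TCACNCCAC only, was found in *Hmgcs1* alone among the 32 members with an entry. It was found in 1.44% of all genes and 1.35% of tested genes with an entry. Members without an entry, such as *Sqle*, *Fdft1* and *Fdps*, were not searched, and other forms of the element were not counted. The E-box CACGTG was found in 3 of 13 cholesterol enzymes, 3 of 19 other members, 8.09% of all genes and 11.6% of tested genes with an entry. TTCNNNGAA, the letters of a STAT5 site, was found in 1 of 13, 0 of 19, 9.55% and 8.27%. A match is a description of the letters in these windows and does not mark a bound site.

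In mean level, *Srebf1* and *Srebf2* were lower in the test group, in which the cholesterol enzymes were higher in mean, with overlapping groups for both. *Srebf1* was at 1565, 908 and 1227 CPM in the control tumors and 1191, 565 and 443 CPM in the test tumors. Its log2 fold change was -0.75 (standard error 0.44), with test replicate 1 inside the control range. *Srebf1* had the highest level per length of the 43 genes in the controls, at a mean of 282 FPKM. *Srebf2* was at 202, 192 and 220.1 CPM in the controls and 162, 102 and 201 CPM in the test tumors, a log2 fold change of -0.40 (standard error 0.30). Test replicate 3, which had the highest level for most cholesterol enzymes, had the lowest *Srebf1* and the highest *Srebf2* of the test tumors. *Insig1*, the sterol-sensing retention protein and itself an SREBP target, was at 74.0, 74.3 and 62.6 CPM in the controls and 55.3, 125 and 66.0 CPM in the test tumors, and its values were mixed. *Stard4*, a cholesterol carrier, differed by 0.60 on the log2 scale (standard error 0.39), with overlapping groups.

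Fatty acid synthesis held the widest spread of the members, with a median log2 fold change of 0.08 over 14 genes, 8 higher and 6 lower in mean. *Olah* (NCBI Gene 99035, chromosome 2, 3341987 to 3366569) encodes the thioesterase that releases medium-chain fatty acids from fatty acid synthase in the lactating gland. It was at 0, 0.757 and 0 CPM in the control tumors and 3.00, 15.4 and 3.08 CPM in the test tumors, from 0, 7 and 0 counts and 26, 126 and 29 counts. All 3 test tumors were above all controls, with test replicate 2 carrying most of the reads. *Olah* passed the filter on low counts only through the test tumors, so the separation and the p-values that follow are a description and not support. The log2 fold change of *Olah* was 4.73 (standard error 1.33), with an adjusted p of 0.432 in edgeR's quasi-likelihood fit (Benjamini-Hochberg) and p = 0.1 by the two-sided exact permutation test. The log2 fold change was 3.50 without test replicate 2 and 8.98 without control replicate 2, which held all the control counts. Its level stayed low, at a mean of 4.58 FPKM in the test tumors beside 61.9 FPKM for *Fasn*.

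*Fasn*, the fatty acid synthase, was at 355, 575 and 399.7 CPM in the controls and 469, 355 and 1053 CPM in the test tumors. Only test replicate 3 stood above the controls, and the log2 fold change of 0.50 (standard error 0.45) became -0.10 without that tumor. *Acaca*, which makes malonyl-CoA, was at 102, 157 and 101 CPM in the controls and 164, 117 and 177 CPM in the test tumors, a log2 fold change of 0.34 (standard error 0.29). *Acly*, the source of cytosolic acetyl-CoA, was at 271, 714 and 292 CPM in the controls and 427, 301 and 356 CPM in the test tumors. Its mean was set by control replicate 2, and without that tumor its log2 fold change turned from -0.24 to 0.36. *Thrsp* (Spot 14), which promotes fatty acid synthesis in the mammary gland, was at 193, 357 and 250.2 CPM in the controls and 156, 349 and 179 CPM in the test tumors and overlapped throughout. *Me1* and *Acss2*, which supply NADPH and acetyl-CoA, had log2 fold changes of 0.01 and 0.15.

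The desaturases and elongases, which edit the finished chains, divided by gene. *Scd1* (NCBI Gene 20249, chromosome 19, 44394450 to 44407709), the stearoyl-CoA desaturase that makes oleate, was at 539, 1093 and 812 CPM in the control tumors and 4026, 1282 and 1798 CPM in the test tumors. The groups did not overlap, but test replicate 1, the tumor with the most adipocyte and muscle marker signal, held the highest value. The log2 fold change of *Scd1* was 1.54 (standard error 0.51), with an adjusted p of 0.475 in edgeR's quasi-likelihood fit (Benjamini-Hochberg), and 0.92 without test replicate 1. The part of adipocyte RNA in this value was not tested. *Scd2*, its neighbour on chromosome 19, was at 1124, 1622 and 1499 CPM in the controls and 1642, 842 and 1216 CPM in the test tumors, a log2 fold change of -0.20 (standard error 0.35). *Scd3*, another neighbour, was higher in every test tumor, at 11.1, 9.19 and 13.3 CPM in the controls and 35.1, 18.6 and 21.9 CPM in the test tumors. The Scd genes are close in sequence, and the counting may split reads between them, so their separate levels are uncertain.

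*Fads2* (NCBI Gene 56473, chromosome 19, 10062765 to 10101503), the delta-6 desaturase of polyunsaturated fatty acid synthesis, was at 165, 210.1 and 229 CPM in the controls and 116, 103 and 115 CPM in the test tumors. Every test tumor lay below every control, and the 3 test values were close together. The log2 fold change of *Fads2* was -0.86 (standard error 0.24), with an adjusted p of 0.430 in edgeR's quasi-likelihood fit (Benjamini-Hochberg). The same gene cluster holds *Fads1*, the delta-5 desaturase, with a log2 fold change of -0.13 and overlapping groups, and *Fads3*, which was at 19.8, 13.2 and 17.0 CPM in the controls and 23.1, 41.0 and 51.3 CPM in the test tumors. These neighbours thus differed in opposite directions, with the same limit on counting of related sequences. *Elovl1*, which extends very long chains, was at 59.7, 87.8 and 91.7 CPM in the controls and 106, 104 and 111 CPM in the test tumors, with no overlap and a log2 fold change of 0.42 (standard error 0.25). *Elovl5*, which extends polyunsaturated chains, and *Elovl6*, which extends palmitate, had log2 fold changes of -0.55 and 0.25 with overlapping groups.

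**Figure D4:**
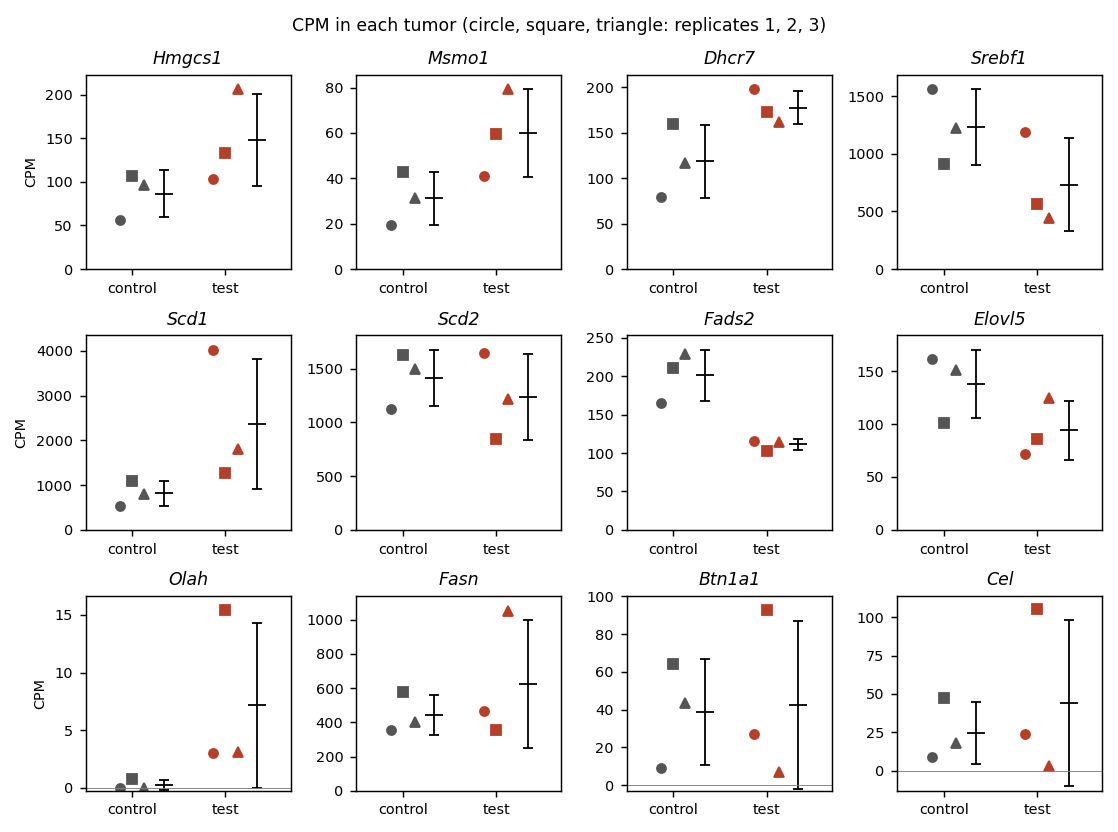
CPM in each tumor for 12 of the genes, control tumors in grey and test tumors in red, with the replicate number given by the symbol and the mean with its SD in black beside each group. Groups separate for *Dhcr7*, *Scd1*, *Fads2* and *Olah*, and overlap for the other 8 genes.

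Triacylglycerol assembly showed no shared direction. *Gpam*, which starts glycerolipid synthesis, and *Lpin1*, the phosphatidate phosphatase, were highest in test replicate 1, at 49.6 and 146 CPM, and lowest in test replicate 2, where *Lpin1* was at 26.6 CPM. Their log2 fold changes were 0.29 and -0.04. *Dgat2*, which joins the last fatty acid, was at 8.68, 4.65 and 10.3 CPM in the controls and 6.46, 4.64 and 3.82 CPM in the test tumors, a log2 fold change of -0.66 (standard error 0.45). *Dgat1*, which catalyzes the same step, had a log2 fold change of 0.34, and the groups overlapped for all 4 genes.

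The genes that package milk fat varied widely between tumors of a group. *Btn1a1*, butyrophilin of the milk fat globule membrane, was at 8.91, 64.3 and 43.6 CPM in the controls and 27.3, 92.6 and 7.22 CPM in the test tumors. *Cel*, the bile salt-activated lipase of milk, was at 8.91, 47.4 and 17.9 CPM in the controls and 24.0, 105 and 2.86 CPM in the test tumors. Both were highest in test replicate 2 and lowest in test replicate 3, the tumor in which most cholesterol enzymes were highest. *Xdh*, which binds butyrophilin at the secretory membrane, was at 415, 854 and 312 CPM in the controls and 542, 241 and 444 CPM in the test tumors. *Plin2*, the coat protein of the droplet, was at 287, 223 and 222 CPM in the controls and 147, 291 and 229 CPM in the test tumors, and neither gene separated the groups. *Fabp3*, a fatty acid carrier, was at 1.97, 0.973 and 3.94 CPM in the controls and 0.807, 1.46 and 0.531 CPM in the test tumors. These are low levels, and the log2 fold change of *Fabp3* of -1.29 had a standard error of 0.71. Over the 5 genes the median log2 fold change was -0.13, and test replicate 3 was the lowest tumor for 3 of them.

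Other genes of these pathways, 91 in all with 84 tested, had 4 higher and 4 lower at an unadjusted p under 0.05, with no overlap for 5 higher and 6 lower. Of all genes tested, 3.15% were higher and 5.26% lower at that p, and 6.12% and 5.86% without overlap. Nothing is read from these counts, and the genes named below are given as a description. *Soat1*, which esterifies cholesterol for storage, had the lowest log2 fold change among the other sterol genes. *Soat1* was at 86.7, 36.0 and 66.2 CPM in the controls and 19.1, 20.8 and 30.2 CPM in the test tumors, a log2 fold change of -1.43 (standard error 0.38). *Lbr*, a sterol reductase of the nuclear envelope, was at 27.1, 34.1 and 26.2 CPM in the controls and 40.6, 40.8 and 40.1 CPM in the test tumors, so that the groups did not overlap.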

How the data were processed

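Total RNA of 6 breast tumors was sequenced at Beijing Genomics Institute. The authors aligned the reads to mm10 with Bowtie, and their processing notes also name BWA and RSEM without versions or roles. The annotation release is not given in the sources used here. The deposited expected counts are estimates of the reads of each gene without normalization, and the deposited FPKM values are scaled by gene length and mapped fragments. Genes without an entry in a tumor were set to 0. Of 18460 genes, 18400 were matched by identifier to RefSeq on GRCm38.p6, which gave symbols and coordinates. The gene length in the deposited files served only to read the FPKM scale.

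After rounding of the expected counts, the analysis used edgeR 4.0.16 under R 4.3.3 (filterByExpr, TMM, quasi-likelihood test of 3 test against 3 control tumors, no covariate), with Benjamini-Hochberg adjustment over 13706 genes. The standard error is the size of the log2 fold change divided by the square root of F. Exact permutation tests compared mean log2(CPM + 0.5) over all 20 assignments of the labels. A floor of 3 counts per tumor, which covers counting error only, is 0.318 to 0.366 CPM. Replicate tumors differed beyond sampling noise. Per the study, each tumor came from its own mouse. The methods were checked on simulated counts with larger changes than those of most members and a smaller spread than the tumors showed. That check does not cover differences of the size given here.

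Alternatives were DESeq2 1.42.0, RLE normalization, other count filters, limma 3.58.1 on log2 FPKM values, the replicate block, a pooled Poisson test, single tumors left out and the settings added later. The members and lists were chosen with earlier results of these data known. Values in every tumor are given for members without overlap, for the 4 largest log2 fold changes each way and for members fixed by role, and other pathway genes are named where their groups did not overlap, where fixed, or as the extremes of a list. Some of these pathway genes are not reported here. Genes outside this rule, *Gpam* and *Lpin1* among them, and the promoters shown were picked after values were seen.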

Additional observations from a re-analysis of the deposited data

How the results depend on the processing

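Settings chosen after the data were seen were leaving out control replicate 1 and test replicate 1 together, and scaling each tumor to the luminal epithelial markers. Under luminal scaling the median log2 fold change was -0.50 for cholesterol enzymes, -1.12 for fatty acid genes, -1.03 for triacylglycerol genes, -1.26 for regulators and -1.32 for milk fat globule genes, with that of all genes at -1.14. Then 5 members were called at an adjusted p of 0.05, 1 was higher and 14 lower at an unadjusted p under 0.05, and 1 was higher and 19 lower without overlap, beside 2638 of 13706 genes called, 0.365% and 52.3% at an unadjusted p under 0.05, and 0.285% and 46.1% without overlap. With both tumors left out, 14 members were higher and 6 lower without overlap, beside 15.3% and 14.6% of all genes. At an unadjusted p under 0.05, 3 were higher and 3 lower in that setting, beside 1.92% and 2.36%. DESeq2 called 1 member, beside 343 of 18383 genes, and the pooled Poisson test, which takes no account of the spread between tumors, called 40, beside 9608 of 13706 genes. The triacylglycerol median was -0.15 and -0.19 with limma on log2(FPKM + 1) and log2(FPKM + 0.1), and the milk fat globule median was 0.0039 with at least 10 counts in every tumor. *Btn1a1* had log2 fold changes of -0.12 and -0.16 in the limma fits and *Cel* -0.010 in the second. The correlations of same-numbered tumors were -0.02, 0.12 and -0.14, and those of the other pairs ran from -0.16 to 0.22. These values show no pairing by replicate number, but with 3 tumors in each group they cannot exclude it. With the replicate number as a block, 4 members (*Hmgcs1*, *Msmo1*, *Olah* and *Pmvk*) were higher at an unadjusted p under 0.05, beside 2.98% of all genes. In that fit 2 members (*Fads2* and *Srebf1*) were lower at that p, beside 4.73%, and the triacylglycerol median was -0.20 and *Btn1a1* -0.041. Leaving out 1 tumor at a time gave 4 to 17 members higher and 1 to 5 lower without overlap, the most without control replicate 2, and 1 to 7 higher and 1 to 3 lower at an unadjusted p under 0.05. Without control replicate 2, 16.2% of all genes were higher and 19.1% lower without overlap and 5.2% and 9.06% at that p, and without test replicate 1, which gave the 3 lower, 4.73% were lower at that p. *Olah* was the only higher one left without control replicate 1 or control replicate 3. The medians ran from 0.32 to 0.87 for cholesterol enzymes, -0.082 to 0.22 for fatty acid genes, -0.90 to 0.17 for milk fat globule genes, -0.19 to 0.0052 for regulators and -0.74 to 0.42 for triacylglycerol genes. Those single-tumor fits moved log2 fold changes across 0 for *Acly* (-0.48 to 0.36), *Btn1a1* (-1.18 to 0.69), *Cel* (-0.90 to 1.71), *Fasn* (-0.096 to 0.78), *Insig1* (-0.21 to 0.44), *Plin2* (-0.37 to 0.091), *Scd2* (-0.46 to 0.014), *Sqle* (-0.18 to 0.40), *Thrsp* (-0.67 to 0.041) and *Xdh* (-0.64 to 0.17). The direction held for 168 values of named members under other settings, besides *Olah* with DESeq2, and 138 under single-tumor fits, though sizes moved, as for *Idi1* (0.41 to 1.62) and *Olah* (3.50 to 8.98). The cause of these changes was not tested. Depth limits the lowest genes, such as *Fabp3*, which had 5 to 37 counts per tumor.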

Other observations

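Some genes of fatty acid uptake and storage were highest in the tumor with the most adipocyte marker signal. *Lpl*, which frees fatty acids from circulating lipoproteins, was at 92.4, 42.7 and 73.1 CPM in the controls and 499, 118 and 36.8 CPM in the test tumors, and *Cd36*, a fatty acid transporter, at 5.09, 6.81 and 6.39 CPM and 90.7, 9.89 and 1.91 CPM. *Pparg*, the regulator of fat cell formation, was at 5.44, 0.973 and 2.24 CPM in the controls and 12.8, 1.10 and 0.531 CPM in the test tumors. All 3 were highest in test replicate 1 and lowest in test replicate 3, as were the summed adipocyte markers. Test replicate 1 also had the most skeletal muscle marker signal, and the part of adipocyte or muscle RNA in these 3 genes was not tested. Other uptake genes differed in order, since *Fabp5* was lowest in test replicate 1, at 27.8 CPM, and *Acsl4* and *Acsl5* were highest in test replicate 3, at 647 and 136 CPM. *Slc27a3* had the lowest log2 fold change of the uptake genes, -2.20 (standard error 0.69), with control replicate 2 among the test tumors. *Slc27a4*, a fatty acid transport protein, had no overlap, at 60.2 to 79.8 CPM in the controls and 84.7 to 91.3 CPM in the test tumors.

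*Cpt1a*, which admits fatty acids to mitochondria for oxidation, was at 71.2, 119.6 and 80.2 CPM in the controls and 58.0, 29.9 and 41.0 CPM in the test tumors, a log2 fold change of -1.07 (standard error 0.34). *Cpt2*, the next step, also had no overlap and was lower in the test group (log2 fold change -0.24), while over 11 tested oxidation genes 4 were higher and 7 lower in mean. *Agpat2* was higher and *Agpat3*, *Lpin2* and *Plin3* were lower in every test tumor than in any control, with log2 fold changes of 0.40, -0.63, -0.92 and -0.47. *Acacb* (1.27), *Pnpla2* (1.02), *Ehhadh* (0.69) and *Muc15* (1.85) had the highest log2 fold changes of their lists, and *Elovl4* (-0.33), *Mogat1* (-1.68) and *Akt1* (-0.30) the lowest, with overlapping groups. *Acacb*, *Ehhadh* and *Pnpla2* were highest in test replicate 1, at 76.1, 58.3 and 512 CPM, and in the other test tumors *Acacb* (11.5 and 12.9 CPM) and *Ehhadh* (13.8 and 14.7 CPM) lay within the control range. *Fabp5*, *Acsl4* and *Acsl5* were named after their values were seen. *Mfge8*, the milk fat globule protein lactadherin, was at 5365, 1559.8 and 4530.1 CPM in the controls and 1594, 2721 and 967 CPM in the test tumors. Its groups overlapped through control replicate 2, the control with the most luminal marker signal. With tumors scaled to luminal markers the median log2 fold change of all genes was -1.14, and the differences given here are on TMM scaling.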
